A study of Mus musculus with 22 samples.

Results

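Vesicular transporters and synthetic enzymes that mark glutamate and GABA neurons, and a membrane transporter of glycine, were followed through the 7-day mouse brain. The genes were listed by name, and 1 probe per gene was chosen by its median level: Slc17a6, Slc17a7, Slc17a8, Slc32a1, Gad1, Gad2 and Slc6a9, that is 7 of the 20129 RefSeq genes named on the array. The data came from Transcriptome Tomography, in which a brain is cut along one axis, runs of consecutive slices are pooled as fractions, and total RNA of each fraction is hybridised to a microarray. Male C57BL/6J mice, an inbred strain with no allele or treatment in the labels, gave 10 coronal fractions (1 mouse), 6 horizontal fractions (another mouse) and 6 sagittal fractions (the third mouse). The titles of the samples give the age as postnatal day 7, whereas their age field reads 3 days, and the titles were followed. Each fraction was measured on 1 array, so no value has a replicate and no spread between animals can be given. Fractions are numbered as in the labels, which do not state from which end the counting began. Each fraction was 1 slab, except that coronal fraction 10 joined slabs 10 and 11, sagittal fraction 1 joined slabs 1 and 2, and sagittal fraction 6 joined slabs 7 to 9.

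Glutamate is the main excitatory transmitter of the brain, and a neuron can release it only after a vesicular glutamate transporter has loaded it into synaptic vesicles. Slc17a7 encodes VGLUT1, known mainly from neurons of the cerebral cortex, hippocampus and cerebellar granule layer, Slc17a6 encodes VGLUT2, known mainly from thalamus, brainstem and other subcortical nuclei, and Slc17a8 encodes VGLUT3, found in sparser groups of neurons such as raphe cells. GABA is made from glutamate by the glutamate decarboxylases GAD67 (Gad1) and GAD65 (Gad2) and is loaded into vesicles by VGAT (Slc32a1), which also loads glycine. Slc6a9 encodes GlyT1, a plasma membrane glycine transporter known mainly from astrocytes. Slc6a5, the glycine transporter of glycinergic neurons, was not analysed here.

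Along the coronal axis Slc17a7, Gad1 and Gad2 rose and Slc17a6 fell, and the upstream 250 bases of these 4 members, which passed the test there, are shown. They are RefSeq promoter sequences on GRCm38.p6, read 5′ to 3′ on the strand of the gene, and the first of the 2 starts listed for Slc17a6 was taken. All 7 members matched the RefSeq promoter table. Capitals mark E-boxes (CANNTG) and GC boxes (GGGCGG, or CCGCCC where it lies on the other strand), which were searched on both strands.
Slc17a7, chr7:45163671-45163920, + strand: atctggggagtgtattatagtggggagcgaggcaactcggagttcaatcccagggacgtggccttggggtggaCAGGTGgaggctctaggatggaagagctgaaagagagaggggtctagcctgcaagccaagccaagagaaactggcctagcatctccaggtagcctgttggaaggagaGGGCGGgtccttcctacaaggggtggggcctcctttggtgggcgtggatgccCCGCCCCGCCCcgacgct
Slc17a6, chr7:51621580-51621829, + strand: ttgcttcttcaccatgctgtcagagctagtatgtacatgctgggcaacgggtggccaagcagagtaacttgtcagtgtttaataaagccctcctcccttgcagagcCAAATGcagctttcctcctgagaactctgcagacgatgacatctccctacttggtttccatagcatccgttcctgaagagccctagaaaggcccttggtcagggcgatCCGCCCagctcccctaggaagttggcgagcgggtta
Gad1, chr2:70561879-70562128, + strand: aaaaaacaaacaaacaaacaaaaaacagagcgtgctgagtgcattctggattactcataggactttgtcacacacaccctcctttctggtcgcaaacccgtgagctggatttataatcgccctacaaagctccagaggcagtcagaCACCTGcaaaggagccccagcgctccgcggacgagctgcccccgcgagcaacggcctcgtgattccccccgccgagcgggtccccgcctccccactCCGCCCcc
Gad2, chr2:22622077-22622326, + strand: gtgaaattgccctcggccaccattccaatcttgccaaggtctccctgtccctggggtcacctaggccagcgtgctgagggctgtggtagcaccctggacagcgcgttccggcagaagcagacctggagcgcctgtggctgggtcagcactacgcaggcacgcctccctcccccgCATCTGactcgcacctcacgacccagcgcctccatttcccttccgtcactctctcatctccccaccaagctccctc
An E-box was found in 66.2% and a GC box in 32.7% of 32851 promoter windows of the same length. Each of the windows printed here held 1 E-box. The Slc17a7 window held 3 GC boxes, of which the last 2 overlap, those of Slc17a6 and Gad1 held 1 each and that of Gad2 held 0. The homeodomain core TAATTA (in 4.84% of all windows) and the cAMP response element TGACGTCA (in 1.55%) were in none of the windows printed. The window at the other listed start of Slc17a6, not printed, held 1 TAATTA, 2 E-boxes and 0 GC boxes. Each match is a run of letters and not a tested binding site.

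Levels are log2 processed intensities, scaled by subtracting the 75th percentile of the array they were read on. A level of one probe says nothing against that of another probe, so each gene is compared with itself across fractions. A brain fraction is a bulk sample, in which fewer cells of a type and less RNA per cell cannot be told apart. All 7 probes were well above background on all 22 arrays. Over the 22 fractions the members' levels had SDs from 0.65 (Gad1) to 1.06 (Slc17a7), against a median of 0.52 over the 39621 probes tested. On 7 arrays (coronal 1 and 2, horizontal 1 to 3, sagittal 1 and 3) the slope of the spike-in control RNAs lay outside the range that the extraction software accepts, and a dim spike-in probe, a107, read 6.40 to 8.02 on its log2 scale there, against 3.20 to 4.95 on the other 15 arrays. The arrays lay on 4 slides, with all horizontal arrays on 1 of them. Coronal fraction 2 was the only array on its slide. Coronal fractions 9 and 10 shared a slide with all sagittal arrays, and the other coronal arrays shared the remaining slide. Slide is thus partly tied to coronal position.

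Slc17a7 was the member with the widest change along the coronal axis. Its level was −1.63, −1.43 and −1.43 in coronal fractions 1 to 3. It was 0.74, 1.60, 1.87, 1.46, 1.13, 1.95 and 1.84 in fractions 4 to 10. The first 3 fractions lay below all the others, and the lowest and the highest fraction differed by 3.58 log2 units. The fitted curve spanned 3.96 log2 units, with a linear change from end to end of 3.89 ± 0.50 (SE) and an adjusted p of 0.000621 (limma, 13 residual degrees of freedom). Of the 10 coronal values, 5 lay within 1 residual SD (0.51) of the top, so the order among fractions 5, 6, 7, 9 and 10 is not resolved. In 7 coronal arrays of a single slide the end-to-end change was 3.49 (limma adjusted p = 0.0624), and in the coronal arrays whose spike-in slope was in range it was 2.28 (limma adjusted p = 0.0567).

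The linear term of Slc17a6 had the sign opposite to that of Slc17a7. Over the coronal fractions the r between these genes was −0.22, and fraction 6 was the highest for Slc17a6 and the second highest for Slc17a7. In coronal fractions 1 to 7 Slc17a6 read 2.91, 2.12, 2.84, 3.17, 3.26, 3.32 and 2.53. In fractions 8 to 10 it read 0.49, 1.29 and 1.45. The last 3 fractions lay below all others, and the highest (fraction 6) exceeded the lowest (fraction 8) 7.11-fold. The end-to-end change was −1.83 ± 0.58 log2 units with a limma adjusted p of 0.0474. That call was close to the threshold and was lost in 19 of the 22 fits that left out 1 array each, being kept without coronal fraction 2, 8 or 10, while the fall itself was seen in each of these fits, from −2.29 to −1.39. It held under 4 of 14 alternatives, and with slide as a block the value was −3.20 and the call was lost (limma adjusted p = 0.172).

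Slc17a8 had a profile much like that of Slc17a6, at levels of 0.55, −0.70, 0.17, 0.54, 0.60, 0.76 and −0.08 in coronal fractions 1 to 7 and −1.31, −0.84 and −0.90 in fractions 8 to 10. Its end-to-end value was −1.30 ± 0.49 and did not pass the test (limma adjusted p = 0.0796). It passed over probes well above background on all 22 arrays (limma adjusted p = 0.0489) and without coronal fraction 2 (−1.85, limma adjusted p = 0.0306). Across the 22 fractions Slc17a6 and Slc17a8 had a Pearson r of 0.96, with 0.97, 0.99 and 0.98 within the coronal, horizontal and sagittal series. These points share arrays and come from 3 brains, so the r is a description. A further Slc17a8 probe, A_52_P163021, was well above background on 8 arrays only and had an r of −0.13 with the probe used. Whether the probe used also binds RNA of related transporters was not tested.

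**Figure D1:**
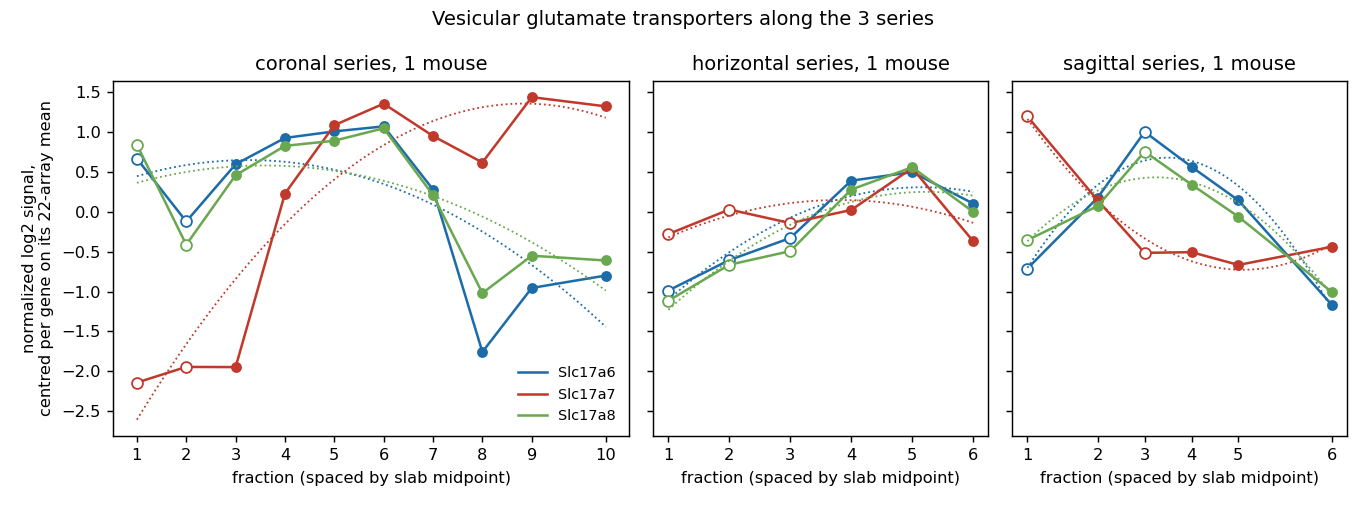
Normalized log2 signal of Slc17a6 (blue), Slc17a7 (red) and Slc17a8 (green), each centred on its own mean over the 22 arrays, in the fractions of the coronal, horizontal and sagittal series. Each point is 1 array, open points are the 7 arrays with the spike-in slope out of range, and dotted lines are quadratic curves fitted to each series. Slc17a7 is low in coronal fractions 1 to 3 and Slc17a6 and Slc17a8 are low in fractions 8 to 10.

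Along the coronal axis 4 of the 7 members passed the test, against 19.8% of the 39621 probes. Of these, 3 rose towards the higher fraction numbers (Slc17a7, Gad1 and Gad2), against 12.4% of the probes, and Slc17a6 fell, against 7.43%.

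The difference between Slc17a7 and Slc17a6 on the same array asks how the balance of the 2 transporters' RNA moved through the brain. Only its change between fractions can be read, because the 2 probes have different sensitivities. Along the coronal axis the difference was −4.54, −3.56 and −4.28 in fractions 1 to 3. It was −2.43, −1.66, −1.45 and −1.06 in fractions 4 to 7 and 0.64, 0.66 and 0.39 in fractions 8 to 10. It therefore moved by 5.20 log2 units, a 36.8-fold change of the ratio, and the fractions with the lowest and the highest numbers lay at opposite ends. A quadratic curve in slab position had an R2 of 0.924, with a two-sided permutation p of 5e-05 over 100000 random orders of the fractions and an adjusted p of 0.00015 over the 3 series. The permutation takes the fractions of 1 brain as exchangeable, which neighbouring slabs need not be, and it measures no spread between animals. The R2 was 0.931 in the coronal arrays of 1 slide and 0.937 in the coronal arrays with the spike-in slope in range.

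In the sagittal series the difference was 0.17 in fraction 1, −1.77 in fraction 2, −3.25 in fraction 3, −2.80 in fraction 4, −2.54 in fraction 5 and −0.998 in fraction 6. Both outer fractions stood above all inner fractions, and the range was 3.43 log2 units or 10.7-fold. Fractions 1 and 3, the highest and the lowest, were the 2 sagittal arrays whose spike-in slope was out of range. Without fraction 1 the range was 2.25 log2 units (4.77-fold), and over the 4 arrays in range it was 1.81 (3.50-fold). The end-to-end slope term was −0.997 over all 6 fractions, 1.19 without fraction 1 and 0.79 over the arrays in range. The quadratic curve had an R2 of 0.948 with an exact permutation p of 0.0167 over 720 orders and an adjusted p of 0.025. Without fraction 1 the R2 was 0.870 and the exact adjusted p 0.133, and the call was also lost without fraction 2, 4 or 6, where 5 fractions remained.

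In the horizontal series the difference ran from −1.02 (fraction 1), −1.10, −1.55, −2.10 and −1.68 to −2.20 (fraction 6), a range of 1.18 log2 units or 2.26-fold. The R2 was 0.811 with an exact permutation p and an adjusted p of 0.0472. The call was lost with normexp background correction (exact adjusted p = 0.0833), with quantile normalization (0.0583), after regression on the spike-in probe a107 (0.0917), and without any 1 of the 6 fractions.

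**Figure D2:**
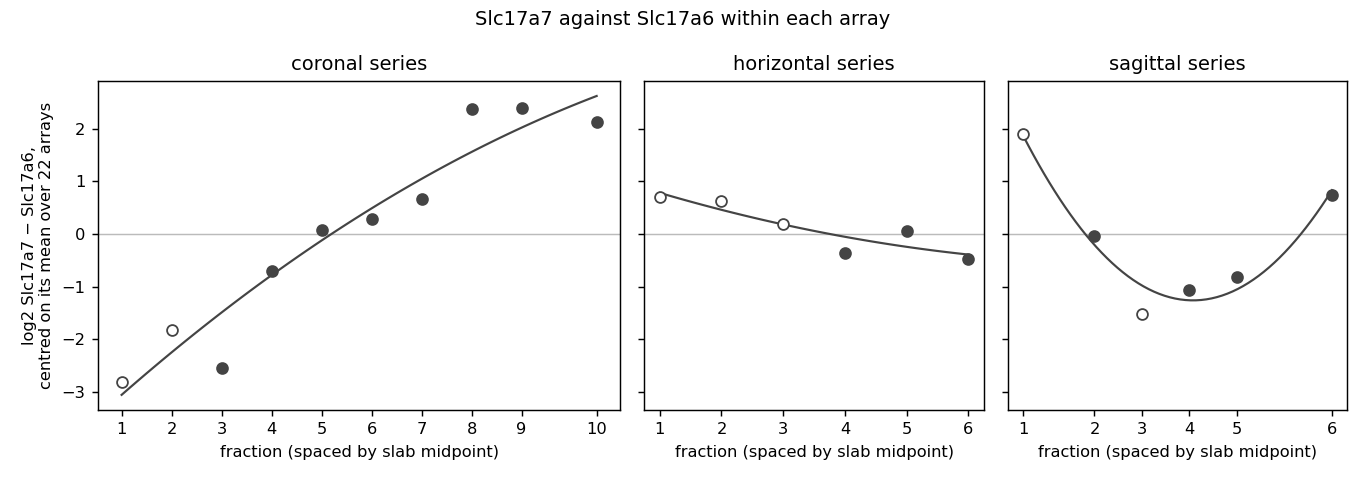
Difference of the log2 signals of Slc17a7 and Slc17a6 on the same array, centred on its mean over the 22 arrays, against fraction. Each point is 1 array, open points are arrays with the spike-in slope out of range, and lines are the quadratic curves. The difference spans 5.20 log2 units over the coronal fractions, 1.18 over the horizontal and 3.43 over the sagittal ones, where both outer fractions are high.

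Regional marker lists peaked in different coronal fractions. Hindbrain Hox genes were highest in coronal fraction 1, cerebellum markers in fraction 2, raphe and midbrain dopaminergic markers in fraction 4, thalamus and hypothalamus markers in fraction 6, striatum markers in fraction 8, cerebral cortex markers in fraction 9 and olfactory bulb markers in fraction 10. None of these lists peaked in fraction 3, 5 or 7, and of the 4 raphe genes 1 passed the test and 1 was well above background on all 22 arrays. All 8 cortex markers, transcription factors such as Tbr1 and Emx1 among them, passed the coronal test and rose. Their mean level, each gene centred on its own mean, was −2.64, −2.32 and −2.94 in coronal fractions 1 to 3 and between −0.03 and 1.32 in the others. The cortex list mean had an r of 0.97 with Slc17a7 over the 10 coronal fractions, 0.95 over the 6 sagittal fractions and 0.00 over the 6 horizontal fractions. In the horizontal series the list was highest in fraction 1 and lowest in fraction 6, while Slc17a7 read 0.23, 0.54, 0.37, 0.54, 1.06 and 0.15 from fraction 1 to 6 (limma adjusted p = 0.787). Cerebellum markers, high where Slc17a7 was low, had an r of −0.94 with it over the coronal fractions.

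The thalamus list mean had an r with Slc17a6 of 0.76 over the coronal, 0.90 over the horizontal and 0.78 over the sagittal fractions. Other marker lists reached a higher r with Slc17a6 over the 6 horizontal fractions (midbrain dopaminergic, striatum and raphe, each 0.98, oligodendrocytes, 0.97, and olfactory bulb, 0.96) and over the 6 sagittal fractions (cholinergic, 0.97, Hox, 0.90, midbrain dopaminergic, 0.85, oligodendrocytes, 0.84, and hypothalamus, 0.83). The mean level of the thalamus list was highest in coronal fraction 6, the fraction in which Slc17a6 was highest too. In coronal fraction 1, where the Hox genes peaked and the thalamus list stood at 0.13, Slc17a6 read 2.91, within 1 residual SD (0.59) of its highest level. The raphe list had an r of 0.63 with Slc17a8 over the coronal fractions, and its top fraction 4 was 1 of the 4 fractions in which Slc17a8 was within 1 residual SD (0.50) of its own highest level. The thalamus (0.77) and astrocyte (0.68) lists had a higher coronal r with Slc17a8, and the raphe list had an r of 0.61 with Slc17a6. All correlations with list means are descriptions over fractions that share a brain.

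**Figure D3:**
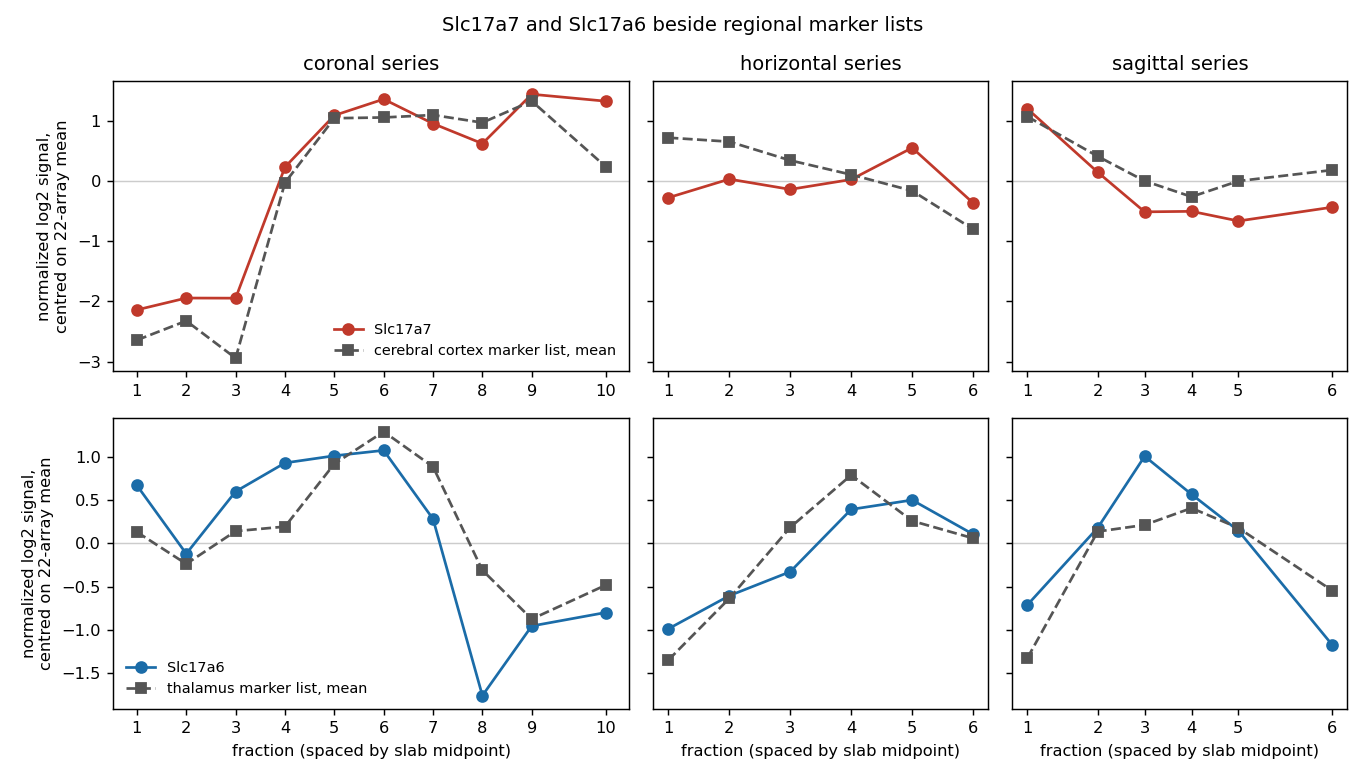
Top row, Slc17a7 (red circles) and the mean of the cerebral cortex marker list (grey squares). Bottom row, Slc17a6 (blue circles) and the mean of the thalamus marker list. Values are normalized log2 signals centred on the 22-array mean, 1 array per fraction. Slc17a7 and the cortex list rise together between coronal fractions 3 and 5 and separate in the horizontal series.

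Gad1 and Gad2 rose along the coronal axis, and Gad2 and Slc32a1 rose along the horizontal axis. Gad1 was 2.26, 1.68 and 2.16 in coronal fractions 1 to 3. It was 2.85, 3.09, 2.97, 3.34, 2.96 and 3.04 in fractions 4 to 9 and 4.14 in fraction 10. Fraction 10 stood alone at the top, by more than the residual SD of 0.36, and was also the fraction with the highest olfactory bulb marker level. The end-to-end rise was 1.81 ± 0.36 with a limma adjusted p of 0.0116. This call held in each of the 22 fits that left out 1 array, with limma adjusted p-values up to 0.0363, and under 9 of 14 alternatives. It was lost with slide as a block (limma adjusted p = 0.192), no scaling (0.0649), the coronal arrays alone (0.0824), the spike-in slope in range (rise of 1.30, 0.105) and slide 1 alone (rise of 1.03, 0.162).

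Gad2 was 2.21, 1.23 and 1.88 in coronal fractions 1 to 3. It was 2.88, 3.09, 3.12, 3.44, 3.06, 2.46 and 3.08 in fractions 4 to 10. The rise was 1.33 ± 0.43 with a limma adjusted p of 0.0467, and the call was lost in 16 of the 22 fits without 1 array, being kept without coronal 1 or 9 or horizontal 1, 3, 5 or 6, and held under 3 of 14 alternatives. Without coronal fraction 2 the rise was 0.86 (limma adjusted p = 0.164), and on the arrays with the spike-in slope in range it was 0.55 (limma adjusted p = 0.194). Unlike Gad1, its highest level was in fraction 7, and 5 fractions lay within its residual SD (0.44) of the top.

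Slc32a1 read 5.79, 5.04, 5.64, 6.27, 6.20 and 6.28 in coronal fractions 1 to 6 and 6.55, 6.50, 5.59 and 6.30 in fractions 7 to 10, with an end-to-end value of 0.76 ± 0.41 (limma adjusted p = 0.198), which was 0.41 without coronal fraction 2 and 1.11 without fraction 9. Slc6a9 had its highest coronal level in fraction 1 (5.51), read 4.30 to 5.36 in fractions 2 to 7 and 4.06 to 4.34 in fractions 8 to 10, and its end-to-end value of −0.99 ± 0.37 had a limma adjusted p of 0.118. In the 22 fits without 1 array the Slc6a9 value ran from −1.42 to −0.70, and it passed in 1, that without coronal fraction 2 (−1.42, limma adjusted p = 0.0235).

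In the horizontal series Slc32a1, Gad2 and Slc6a9 passed the test with a rising linear term, and each was highest in fraction 5. Slc32a1 read 3.80, 4.17, 4.58, 6.09, 6.73 and 6.20 from fraction 1 to 6, with a rise of 3.03 ± 0.49 (limma adjusted p = 0.0131). Gad2 read 0.94, 1.36, 1.83, 3.01, 3.64 and 3.27, with a rise of 2.81 ± 0.51 (limma adjusted p = 0.0207). Slc6a9 read 2.48, 3.03, 3.78, 4.84, 5.21 and 4.70, with a rise of 2.68 ± 0.43 (limma adjusted p = 0.0112). Gad1 read 1.55, 1.81, 1.90, 2.88, 3.34 and 2.72 and its value of 1.63 ± 0.43 missed the threshold (limma adjusted p = 0.0593). It passed with slide as a block (limma adjusted p = 0.0443), with trend and robust variance (0.0433) and over probes well above background on all 22 arrays (0.0336). In all, 3 of the 7 members passed the horizontal test, each rising, against 6.57% of the probes in either direction and 3.94% rising. Slc17a6 (1.26, 1.64, 1.92, 2.64, 2.74 and 2.35) and Slc17a8 (−1.40, −0.95, −0.78, −0.01, 0.27 and −0.29) had the same order of fractions as Slc6a9 and Gad1. In Slc32a1 and Gad2 fraction 6 stood above fraction 4. Slc17a6 and Slc17a8 did not pass, with limma adjusted p-values of 0.226 and 0.136.

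The horizontal arrays with the spike-in slope out of range were fractions 1 to 3, the same fractions in which 6 of the 7 members (all but Slc17a7) lay below their levels in fractions 4 to 6. Of all probes tested, 17.4% lay that way and 28.4% lay the other way. Over the 6 horizontal fractions the a107 signal had an r of −0.97 with Slc32a1, −0.96 with Gad1, −0.95 with Gad2, −0.91 with Slc6a9, −0.90 with Slc17a8 and Slc17a6 and −0.39 with Slc17a7. With a107 as a covariate the rises of Slc32a1, Gad2 and Slc6a9 were 1.95, 2.09 and 1.57 (limma adjusted p = 0.179, 0.239 and 0.109). Among the horizontal fractions 4 to 6 alone, a shorter span with the highest fraction, 5, in its middle, the end-to-end values were 0.11, 0.26 and −0.14. Position and array quality cannot be told apart in this series. Without horizontal fraction 1 all 3 calls were lost (limma adjusted p = 0.0708, 0.0786 and 0.0708), and that of Gad2 was also lost without fraction 2 (0.0545) or 5 (0.0660).

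Other probes gave mixed agreement. A further probe of Slc6a9, A_55_P2010788, had an r of 0.996 with the probe used and a limma adjusted p of 0.0190 in the horizontal series. A further probe of Slc32a1, A_55_P1985286, which was well above background on all 22 arrays, had an r of 0.44 with the probe used and a limma adjusted p of 0.874 in the horizontal series. The Slc32a1 rise was thus seen with 1 of its 2 probes, and whether the probes read different transcripts was not tested.

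**Figure D4:**
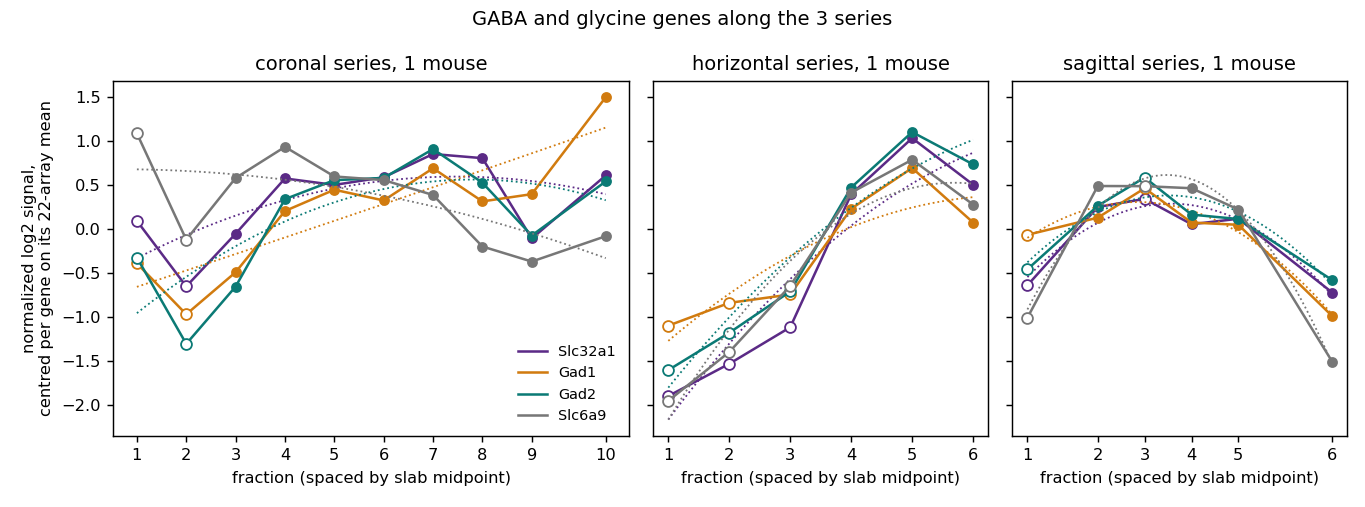
Normalized log2 signal of Slc32a1 (purple), Gad1 (orange), Gad2 (teal) and Slc6a9 (grey), each centred on its own mean over the 22 arrays, in the fractions of the 3 series. Each point is 1 array, open points are the arrays with the spike-in slope out of range, and dotted lines are quadratic curves. All 4 genes are lower in horizontal fractions 1 to 3 than in fractions 4 to 6, and Gad1 is highest in coronal fraction 10.

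In the sagittal series 6 members were higher in the middle fractions than at both sides and Slc17a7 was not. Over all tested probes, 10.1% had both outer fractions below the 4 inner ones. Slc17a7 read 1.71 in fraction 1 and 0.66 in fraction 2. It read −0.00, 0.01, −0.15 and 0.08 in fractions 3 to 6, which did not differ beyond the residual SD. Slc17a6 read 1.54, 2.43, 3.25, 2.81, 2.39 and 1.07, and Slc17a8 read −0.64, −0.22, 0.47, 0.05, −0.35 and −1.30. Slc6a9 read 3.42, 4.91, 4.91, 4.89, 4.65 and 2.92, so both its outer fractions lay below the inner ones. Slc32a1 (5.06, 5.95, 6.04, 5.75, 5.81 and 4.97), Gad1 (2.58, 2.78, 3.11, 2.72, 2.69 and 1.66) and Gad2 (2.08, 2.80, 3.12, 2.70, 2.65 and 1.96) likewise had both outer fractions below the inner ones, with fraction 3 highest and fraction 6 lowest.

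By limma 0 of the 7 members passed the sagittal linear test, against 10.2% of the probes, and 0 passed the quadratic test, against 0.0303%. At an unadjusted p under 0.05 the counts were 1 of 7 (Slc17a7, linear), against 24.0% of the probes, and 6 of 7 (all but Slc17a7, quadratic), against 14.8%. The closest to the threshold was the arch of Slc6a9, whose fitted middle exceeded the mean of both ends by 1.81 ± 0.35 (limma adjusted p = 0.0543). The corresponding values were 1.63 ± 0.55 for Slc17a6, 1.11 ± 0.47 for Slc17a8, 0.93 ± 0.39 for Slc32a1, 0.88 ± 0.41 for Gad2, 0.78 ± 0.34 for Gad1 and −0.94 ± 0.47 for Slc17a7. These sizes leaned on the outer fractions. Without sagittal fraction 1, where the curve spans fewer fractions, they were 0.83 for Slc6a9, 0.90 for Slc17a6, 0.66 for Slc17a8, 0.33 for Slc32a1 and for Gad2 and −0.46 for Slc17a7, and without fraction 6 that of Gad1 was 0.31. The mean of the oligodendrocyte marker list, −1.53 in sagittal fraction 1 and −0.87 in fraction 6 against 0.63 to 0.83 in the fractions between, went the same way. So did the means of the hindbrain Hox, cerebellum, thalamus, hypothalamus, midbrain dopaminergic and cholinergic lists, but not those of the cerebral cortex and striatum lists. The part of these cell types and regions in the sagittal profiles of the members was not tested.

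The members grouped differently by series. Over the coronal fractions Slc32a1 and Gad2 had an r of 0.95, Gad1 and Gad2 0.84, Slc17a7 and Gad1 0.85, Slc17a6 and Slc6a9 0.85 and Slc17a6 and Gad2 −0.01. Over the horizontal fractions all pairs without Slc17a7 had an r of 0.96 to 1.00, among them Slc17a6 with Gad2 at 0.97. Over the sagittal fractions the r was 0.97 for Slc17a6 and Gad2 and −0.42 for Slc17a6 and Slc17a7. The number of fractions is 10, 6 and 6, and the fractions of a series share a brain and, in the horizontal series, the array quality described above.

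**Figure D5:**
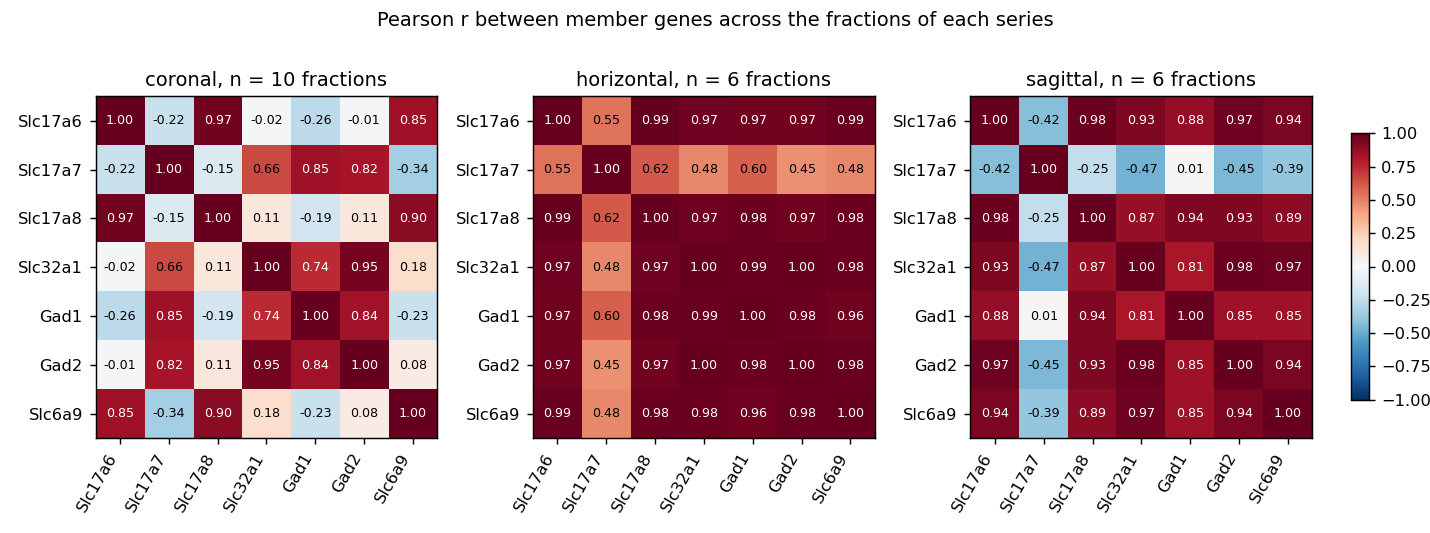
Pearson r between each pair of member genes over the fractions of the coronal, horizontal and sagittal series, on a colour scale from −1 (blue) to 1 (red), with the r written in each cell. The r of Slc17a7 with the other members is 0.45 to 0.62 in the horizontal series and −0.47 to 0.01 in the sagittal series, and in the coronal series it goes with Gad1 (0.85) and Gad2 (0.82) while Slc17a6, Slc17a8 and Slc6a9 go together.

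Among 16684 genes, those whose levels were most like a member over the 22 fractions were found by Pearson r, as a description. For Slc17a7 they were Zdhhc8 (0.944), Nab2 (0.940) and Dclk1 (0.939), and 167 genes exceeded an r of 0.85. For Slc17a6 they were Peg3 (0.893), Rbms3 (0.884) and Zmat4 (0.882), and 13 genes exceeded 0.85. For Slc17a8 they were Peg3 (0.932), Cntn4 (0.931) and Ppargc1a (0.910). For Gad1 they were Dscaml1 (0.946), Kif26a (0.944) and Scamp1 (0.937), all with their highest coronal level in fraction 10, as Gad1 had. For Gad2 they were Zcchc12 (0.938), Enpp4 (0.934) and Galnt16 (0.924), and for Slc32a1 Vwce (0.938), Nrsn2 (0.927) and Galnt16 (0.914). For Slc6a9 they were Slc6a11 (0.965), a GABA transporter known from astrocytes, Sox10 (0.964), a transcription factor of the oligodendrocyte lineage, and Cdh22 (0.953), and 205 genes exceeded 0.85. Means of the oligodendrocyte and astrocyte marker lists had an r of 0.82 and 0.79 with Slc6a9. The 22 fractions include the 7 arrays with the spike-in slope out of range. The spike-in probe a107 had an r of −0.79 with Slc32a1, −0.72 with Gad2, −0.61 with Slc6a9 and −0.55 with Gad1 over these fractions. Its r was −0.39 with Slc17a8, −0.31 with Slc17a6 and −0.18 with Slc17a7. The part of array quality in these likenesses was not tested.

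Other genes of the same pathways were read from lists. A called gene is counted as rising or falling by the sign of its linear term, and since the call tests both terms its profile can also be an arch. The counts stand against 12.4% of all probes rising and 7.43% falling along the coronal axis and 3.94% rising along the horizontal axis. Of 13 genes of glutamate handling 3 rose and 1 fell along the coronal axis, and 3 (Slc1a6, Slc38a1 and Slc38a3) rose along the horizontal axis. Along the coronal axis Slc1a6, the glutamate transporter of cerebellar Purkinje cells, fell by 2.34 ± 0.27 log2 units (limma adjusted p = 0.000542). Slc1a1, a neuronal glutamate transporter, rose (0.93 ± 0.39, limma adjusted p = 0.0312). Of 8 genes of GABA handling, 0 passed the coronal test by limma (1 at an unadjusted p under 0.05, against 38.8% of all probes) and 2 rose along the horizontal axis. They were Abat, the enzyme that breaks GABA down (1.89 ± 0.32, limma adjusted p = 0.0147), and Slc6a11 (2.33 ± 0.52, limma adjusted p = 0.0356). Of 8 genes of glycine handling 2 fell along the coronal axis. They were Slc7a10, a transporter of small neutral amino acids including glycine, which fell by 1.26 ± 0.27 (limma adjusted p = 0.0141), and Amt, of the glycine cleavage system, which fell by 1.05 ± 0.27 (limma adjusted p = 0.0327). Slc7a10 also rose along the horizontal axis (1.72 ± 0.31, limma adjusted p = 0.0182). In the sagittal linear test, against 10.2% of all probes, 2 glycine genes (Gcsh and Slc38a5) and 1 glutamate gene (Slc38a1) passed. The median fitted coronal range was 0.72, 0.69 and 0.56 log2 units in these 3 lists, against 0.99 over all probes tested.

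Transcription factors tied to excitatory and inhibitory neurons were read in the same way. Of 15 tested factors of excitatory neurons 6 rose and 6 fell along the coronal axis, with a median fitted range of 4.69. Tbr1, a factor of cortical excitatory neurons, rose by 7.56 ± 0.73 and Atoh1, of the cerebellar granule lineage, fell from its highest level in fraction 2. Of 16 factors of inhibitory neurons 7 rose and 6 fell, with a median fitted range of 4.47. Dlx1 and Dlx2, of forebrain interneurons, rose and were highest in fraction 10. Dlx1 and Dlx2 were each well above background on 19 of the 22 arrays and Atoh1 on 17, so no size is given for them. Only 9 of the excitatory and 8 of the inhibitory factors were well above background on all 22 arrays, and the median ranges include dimmer values. Of 9 interneuron peptides and calcium-binding proteins 3 rose and 2 fell. Npy rose by 3.28 ± 0.65, Cort rose by 4.15 ± 1.01 and Pvalb fell by 4.39 ± 0.90. Of 5 tested transporters and proteins of other vesicles 2 passed, both with an arched profile lowest in fraction 10. They were Sv2b, a synaptic vesicle protein highest in fraction 5 (limma adjusted p = 0.0147), and Slc18a2, the vesicular monoamine transporter, highest in fraction 4 (limma adjusted p = 0.0448).

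The marker lists were read in the same fit along the coronal axis, where 12.4% of all probes rose and 7.43% fell. All 11 Hox genes and 8 of 9 tested cerebellum genes fell, and 2 of 6 hippocampus, 5 of 9 striatum and 5 of 8 olfactory bulb genes rose. Of the thalamus genes 1 rose and 2 fell of 5, 2 of 6 hypothalamus genes rose, 1 of 4 raphe genes fell, and 1 rose and 1 fell of 5 midbrain dopaminergic and of 5 cholinergic genes. Of 8 genes of all neurons 6 rose and 1 fell, and their mean level had an r of 0.74 with Slc17a7 over the coronal fractions. Of 9 astrocyte genes 4 fell and of 8 oligodendrocyte genes 1 rose and 5 fell, with the oligodendrocyte mean at an r of −0.90 with Slc17a7. By limma 0 of 6 microglia and 0 of 5 meninges genes passed (1 and 0 at an unadjusted p under 0.05, against 38.8% of all probes), and 1 of 5 endothelium genes fell. All 3 red blood cell genes fell, and their mean had an r of −0.93 with Slc17a7 over the same fractions. The part of these cell types in the members' profiles was not tested.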

How the data were processed

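Total RNA of 22 fractions was hybridised to Agilent mouse arrays in 1 colour (Cy3), designed on mm9. Per the file headers, the authors extracted spots with Feature Extraction 10.10.1.1 and deposited background-subtracted intensity on a linear scale. They also deposited a table of log2 values, of which 99.9% lay within 0.02 of log2 intensity minus the array's 75th percentile. Its columns were all assigned to samples by name.

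Control and outlier spots were removed, spots of a probe were averaged, and log2 intensity minus the array's 75th percentile was analysed for the 39621 probes well above background in at least 1 fraction of each series. No spot was saturated. The number of arrays limits the precision. A gene was read from its RefSeq-identified probe with the highest median, and symbols came from a RefSeq table of GRCm38.p6, used for names only.

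Limma 3.58.1 (R 4.3.3) fitted, for each series, a linear plus a quadratic slab midpoint term (13 residual degrees of freedom, no trend, not robust), with Benjamini-Hochberg adjustment over all probes and a threshold of 0.05. An end-to-end change is the fitted linear term, and the call tests both terms together (sagittal terms singly). The spread is scatter around the curves, pooled over 3 mice. Tested on simulated data with 200 probes changed over a range of 3 log2 units, the fit recovered 65% (coronal), 57% (horizontal), 62.5% (sagittal linear) and 74.5% (sagittal quadratic), with 5, 10, 4 and 8 false calls. The difference Slc17a7 minus Slc17a6 was tested by permuting the order of fractions. Python 3.11.15 with numpy 2.4.6, pandas 2.3.3 and matplotlib 3.10.9 was used for the rest.

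Named genes were all members, up to 3 genes per list with the widest fitted coronal range among those called, lists of 5 or fewer calls in another test, and the 3 genes most like each member. The marker lists covered brain regions, neuron types, glia, microglia, endothelium, meninges and red blood cells. Members and lists were chosen with earlier results of these data known. Alternatives covered background correction, scaling, filter, curve, arrays and slides used, spike-in signal, variance model, source of values, probe, and each fraction left out. The mean signal was not a column of these files, so the normexp alternative (offset 50) used median spot and background signals.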

Additional observations from a re-analysis of the deposited data

Results flagged for a closer look

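Among 24 sets of fractions checked for a lone extreme value, 1 stood out, and chance alone gives about 1 in 20. Gad1 in sagittal fraction 6 read 1.66, the lowest of the 6 sagittal fractions, with the next value at 2.58. This gap was 0.636 of the whole sagittal range of Gad1, above the critical value of 0.625 for 6 samples. Fraction 6 pooled slabs 7 to 9, more than any other fraction, and its part in the low value was not tested.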

How the results depend on the processing

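The coronal call of Slc17a7 held under 12 of 14 alternatives and in each of the 22 fits without 1 array. The coronal shift of Slc17a7 against Slc17a6 passed its permutation test under every alternative run, and without 1 fraction its R2 was 0.904 to 0.953. Of the 4 members called along the coronal axis, 2 were called with each array centred on its median, with no filter on dim probes, with the linear term only and with the deposited value table, 1 with no scaling, with the coronal arrays alone and with slide as a block, and 0 with the arrays whose spike-in slope was in range and with the coronal arrays of slide 1 alone. With a107 as a covariate 3 were called (Slc17a6 and Gad2 were lost and Slc6a9 was gained, limma adjusted p = 0.0589, 0.155 and 0.0344), and with quantile normalization 3 (Gad2 was lost, 0.0628). Leaving out 1 fraction gave 2 to 5. Along the horizontal axis 3 were called, and 0 with the horizontal arrays alone, with the spike-in slope in range or with a107 as a covariate, 2 with the linear term only (Slc6a9 was lost, limma adjusted p = 0.0563), and 4 with slide as a block, trend and robust variance or probes well above background on all 22 arrays (Gad1 added); leaving out 1 fraction gave 0 to 4. With the slope in range (3 horizontal arrays, a shorter span) the Slc6a9 value turned to −0.14. In the sagittal linear test 1 member (Slc6a9) was called with the slope in range, and 0 to 1 without 1 fraction. In the sagittal quadratic test 1 (Slc6a9) was called with normexp correction, no scaling, probes well above background on all 22 arrays, slide as a block, or trend and robust variance, and 0 to 1 without 1 fraction, with calls without coronal fraction 1, 2, 3 or 10.

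For the difference Slc17a7 minus Slc17a6, the horizontal R2 was 0.772 with normexp, 0.812 with quantile normalization, 0.749 after regression on a107 and 0.753 to 0.925 without 1 fraction. The sagittal R2 was 0.0754 with the linear term only (exact permutation adjusted p = 0.599), 0.997 on the 4 sagittal arrays whose slope was in range (exact adjusted p = 0.0833, the smallest that 4 arrays allow) and 0.870 to 0.999 without 1 fraction. The cause of these losses was not tested, beyond the smaller number of arrays where arrays were left out. After scaling, the array medians of the tested probes still spanned 0.60 log2 units, and median centring changed no direction of a called member. No paired analysis was possible because fraction numbers mark positions along different axes of different mice. Bright spots of one probe had a median SD of 0.06 log2 units and dim ones 0.17, so dim probes limit precision more.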
